A study of Mus musculus with 2 samples.

Results

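The endothelin and adrenomedullin genes make up 2 peptide systems through which endothelial cells act on vessel tone and on vessel permeability. The set was chosen by name, with earlier results of these data known. It holds 7 genes of the 19831 in the deposited tables: the peptide genes Edn1 and Adm, the processing enzyme gene Ece1, and the receptor genes Ednrb, Calcrl, Ramp2 and Ramp3. All 7 were found, and all 7 had a mean of at least 20 CPM (counts of unique molecular identifiers, UMIs, per 1000000 of a library). Single-cell RNA sequencing had been run on CD31-sorted endothelial cells from tumours of adult mice of the c57bl/6 strain, with 1 control library and 1 library labelled NF2 KO, called the knockout library here. Nf2 encodes merlin, a protein upstream of the Hippo kinases, which restrain the coactivators YAP and TAZ. The tumour, the number of mice, the Cre or promoter used and the deleted exons are not given in the sources used here. With 1 library per group no test between the groups was possible, and every bracketed range is a 95% interval for counting error only.

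Endothelin 1 is made as a long precursor that furin trims and endothelin-converting enzyme 1, the product of Ece1, cuts to the active vasoconstrictor peptide. Smooth muscle answers through the receptor gene Ednra, while endothelium mainly carries Ednrb, whose receptor releases nitric oxide and removes endothelin from the circulation. Adrenomedullin, the product of Adm, relaxes vessels, tightens the endothelial barrier and is a classic hypoxia-induced gene. Its receptor is a pair: the calcitonin receptor-like protein encoded by Calcrl must join an accessory protein, encoded by Ramp2 or Ramp3, to reach the cell surface and bind the peptide.

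The 250 bases upstream of the start of 4 members are shown because the results turn on these genes: Edn1 differed most between the libraries, Adm is the other peptide gene, and Ednrb and Ramp3 were the leading genes of 1 of the endothelial states described below. The sequences are from RefSeq (GRCm38.p6) and read 5′ to 3′ on the strand of the gene, and capitals mark matches to the motif letters searched. They lie at chr13:42301226-42301475 (plus strand, Edn1), chr7:110627407-110627656 (plus strand, Adm), chr14:103843702-103843951 (minus strand, Ednrb) and chr11:6658283-6658532 (plus strand, Ramp3). The starts are those of the promoter entries, which can differ from the gene bounds given below. Of the 4 stretches, that of Ednrb lies wholly inside its gene bounds (103814625 to 103844402). That of Ramp3 runs past its gene start (6658521). The motif search used the promoter entries only.
Edn1: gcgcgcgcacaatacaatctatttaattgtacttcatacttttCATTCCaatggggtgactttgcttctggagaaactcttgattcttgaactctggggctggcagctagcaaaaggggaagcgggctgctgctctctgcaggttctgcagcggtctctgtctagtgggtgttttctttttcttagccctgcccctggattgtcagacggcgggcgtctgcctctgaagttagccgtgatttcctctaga
Adm: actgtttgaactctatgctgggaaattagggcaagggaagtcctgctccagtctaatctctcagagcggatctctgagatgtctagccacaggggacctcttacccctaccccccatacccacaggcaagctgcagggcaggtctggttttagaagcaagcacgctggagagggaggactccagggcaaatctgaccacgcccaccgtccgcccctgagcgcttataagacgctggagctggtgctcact
Ednrb: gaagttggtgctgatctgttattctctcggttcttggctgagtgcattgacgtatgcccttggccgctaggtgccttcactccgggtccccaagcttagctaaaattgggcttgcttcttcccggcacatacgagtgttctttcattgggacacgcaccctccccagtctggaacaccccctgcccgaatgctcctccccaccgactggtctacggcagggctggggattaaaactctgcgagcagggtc
Ramp3: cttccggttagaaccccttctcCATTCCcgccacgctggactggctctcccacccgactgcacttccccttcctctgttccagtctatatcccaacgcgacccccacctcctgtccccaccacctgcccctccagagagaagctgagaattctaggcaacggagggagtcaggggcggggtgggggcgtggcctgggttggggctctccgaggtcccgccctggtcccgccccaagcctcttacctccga
Of the 7 members, 6 had an entry in the promoter table, and each motif was searched on both strands. The letters GGAATG, bound by the TEAD factors that carry YAP and TAZ to DNA, were found on the opposite strand in Edn1 (207 to 202 bases upstream of the start) and in Ramp3 (228 to 223 bases upstream). That is 2 of 6 members, and 12.6% of all 32851 promoter entries of the same length held this motif. The member counts are of genes and the percentages are of entries, and Ece1 had 4 entries, so the units differ. The hypoxia response letters ACGTG were found in 1 of the 4 entries of Ece1, where the matches on both strands overlap, and in 16.6% of all entries. The AP-1 letters TGANTCA, held by 6.75% of all entries, were found in no member. The GATA letters AGATAA, held by 9.99%, were found in none either. A match is a description of letters and does not show binding.

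The control library held 2826 cells with 34649992 UMIs, and the knockout library 3368 cells with 58907098 UMIs. Each barcode bore a run number (1 or 2), which the labels do not explain, so runs are given side by side but are not replicates. Run 1 of the control stood apart, with a median of 2746 UMIs per cell against 14337 to 19409 in the other 3 runs, and at most 1 cell barcode was shared between any 2 runs. Clusters that were shallow or led by neutrophil genes were left out, and 1444 control cells (median 17503.5 UMIs) and 2797 knockout cells (median 16949 UMIs) were retained, with medians between 14279.5 and 22252.5 UMIs in the 4 runs. This step left out 999 of 2443 control and 349 of 3146 knockout cells. Run 1 of the control went from 1714 to 840 cells. In the left-out clusters, endothelial markers summed to 8471, 9549 and 6596 CPM and neutrophil markers to 834, 1637 and 283 CPM. Whether the cells left out were endothelial was not tested. In the retained cells, endothelial markers were at 20 CPM or more for 16 of 16 genes in both libraries with sums of 10447 CPM for control and 8126 CPM for knockout cells. Nf2 was at 21.7 and 22.5 CPM in the control runs and at 20.4 and 20.4 CPM in the knockout runs. Reads from the 3′ end do not check a deletion elsewhere in the gene, so Nf2 neither bears out nor contradicts the labels.

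Of the 7 members, Edn1 alone differed between the libraries by the size rule used here, a ratio of CPM of at least 1.5 in either direction with an interval without 1 and a mean of at least 20 CPM. By this rule 2.79% of the 5844 genes tested were higher in the knockout library and 5.42% were lower, against 1 of 7 members higher and none lower. The median log2 ratio (knockout over control) was 0.016 over the 7 members and −0.03 over all genes tested. Between the runs of 1 library, 0.751% of genes in the control library and 1.19% in the knockout library passed the same rule, and no member did. The levels of the 2 libraries' runs did not overlap for Edn1, Ece1, Ednrb and Adm, and they overlapped for Calcrl, Ramp2 and Ramp3. Runs did not overlap for 64.9% of all genes tested, so a gap of this kind says little about the members.

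**Figure D1:**
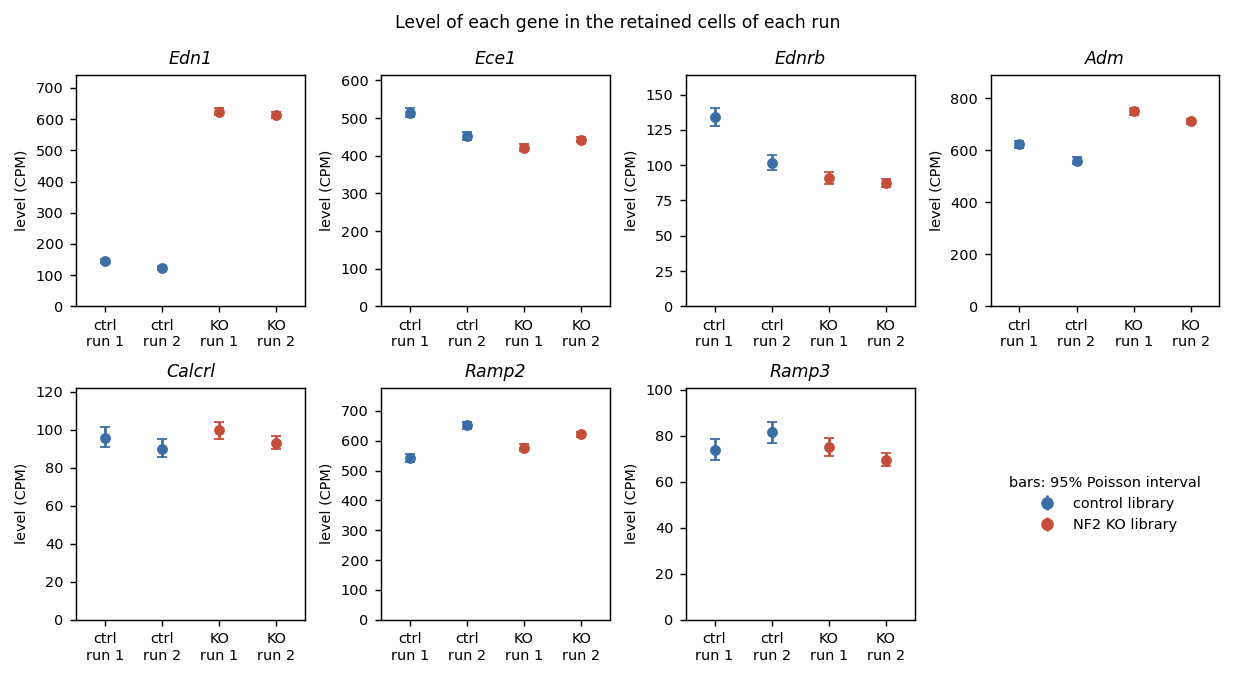
Level of each of the 7 genes in CPM (linear axis from 0) in run 1 and run 2 of the control and the knockout library, with 95% Poisson intervals. The Edn1 points lie at 122 to 145 CPM in the control, against 613 to 624 CPM in the knockout runs, while the points of the receptor genes Calcrl, Ramp2 and Ramp3 overlap.

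Edn1 (ENSMUSG00000021367.8, chromosome 13, 42301476 to 42307990, plus strand of GRCm38), the endothelin 1 gene, had 145 and 122 CPM in runs 1 and 2 of the control and 624 and 613 CPM in those of the knockout library. Every knockout run was above every control run. The pooled levels of 133 and 617 CPM gave a ratio of 4.64 (4.49 to 4.80), the 6th highest of the 5844 genes tested, and the 4 pairings of a control run with a knockout run gave 4.24 to 5.09. An Edn1 UMI was seen in 41.3% of control cells (38.8 to 43.9) and in 85.1% of knockout cells (83.8 to 86.4). Thinned to 2000 UMIs per cell, which left out 89 control and 21 knockout cells, these shares were 16.8% and 54.6%. Edn1 was also spread over more cells of the knockout library: the top 10% of cells held 57.4% of its UMIs in the control, against 29.6% in the knockout library. No reference for free RNA could be drawn from these sorts, since a gate for leukocytes found 2 control cells and 0 knockout cells.

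The size of the Edn1 ratio depended on which cells were compared. Without 3 clusters that had a marker of another cell type among their 10 leading genes, the ratio was 2.93 (2.81 to 3.05). These were a cluster led by Gal, Kcnj8 and Piezo2 (578 control and 12 knockout cells), one led by Cldn4, Chga and F2rl1 (48 and 846 cells) and one led by Sult1a1, Cyp4b1 and Tagln (18 and 287 cells). Each had 1 such marker, against 3, 1 and 2 endothelial ones among its leading genes. General endothelial markers summed to 10360, 7293 and 8601 CPM in them, and each cluster held mostly cells of 1 library. Over the retained cells, 11 pericyte or smooth muscle markers summed to 155 to 206 CPM in the control runs and 50.3 to 69.5 CPM in the knockout runs, with 2 and 1 of them at 20 CPM or more. The 7 epithelial or tumour markers summed to 5.67 to 9.33 CPM in the control, against 30.9 to 38.7 CPM in the knockout runs, with none and 1 of them, respectively, at 20 CPM or more. No marker of these lists was at 0 in both libraries, and the part of cells of other types in the Edn1 ratio was not tested. The value without the 3 clusters does not isolate it, since it also leaves out cells with endothelial markers.

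Ece1 (ENSMUSG00000057530.14, chromosome 4, 137862237 to 137965229, plus strand), which encodes the enzyme that releases active endothelin, had 514 and 451 CPM in the control runs, against 421 and 443 CPM in the knockout runs. Its ratio of 0.904 (0.885 to 0.923) was short of the size rule. It was found in most cells, 93.4% of the control and 96.5% of the knockout library. Ece1 was the member spread most evenly: the top 10% of cells held 14.3% of its UMIs in the control, against 17.7% in the knockout library.

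Ednrb (ENSMUSG00000022122.15, chromosome 14, 103814625 to 103844402, minus strand), the endothelin B receptor gene, had 134 and 102 CPM in the control runs, against 90.8 and 87.3 CPM in the knockout runs. The ratio was 0.756 (0.724 to 0.791), and the gap between the control runs was larger than that between control run 2 and either knockout run. Without run 2 of the control the ratio was 0.661 (0.626 to 0.698), which passes the size rule. Ednrb was seen in 50.6% of control and 35.3% of knockout cells, and after thinning in 18.8% and 12.6%. Its UMIs sat in fewer cells of the knockout library, where the top 10% of cells held 60.1% of them, against 44.0% in the control.

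Adm (ENSMUSG00000030790.15, chromosome 7, 110627661 to 110629820, plus strand), the adrenomedullin gene, had 624 and 561 CPM in the control runs, against 749.9 and 712 CPM in the knockout runs. The knockout runs were above the control runs, with a pooled ratio of 1.23 (1.21 to 1.25) that did not pass the size rule. Adm was seen in 73.9% of control and 80.2% of knockout cells. The top 10% of cells held 38.3% and 37.3% of its UMIs, so the skew between cells was alike in the 2 libraries.

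The receptor genes of adrenomedullin had close to equal levels in both libraries. Calcrl (ENSMUSG00000059588.13, chromosome 2, 84330626 to 84425411, minus strand), the gene of the receptor chain, had 95.8 and 90.03 CPM in the control runs, against 99.6 and 93.2 CPM in the knockout runs, a ratio of 1.03 (0.982 to 1.08). Ramp2 (ENSMUSG00000001240.13, chromosome 11, 101246028 to 101259546, plus strand), the main accessory gene of endothelium, had 542 and 652 CPM in the control, against 577 and 622 CPM in the knockout runs, a ratio of 1.01 (0.993 to 1.03). Both knockout runs of Ramp2 lay between the control runs. Ramp3 (ENSMUSG00000041046.7, chromosome 11, 6658521 to 6677475, plus strand), the other accessory gene, had 74.0 and 81.6 CPM in the control, against 75.2 and 69.7 CPM in the knockout runs, a ratio of 0.919 (0.872 to 0.969). Ramp3 was the most uneven member, with 63.3% of its UMIs in the top 10% of control cells and 76.0% in those of the knockout library, and it was seen in 36.3% and 27.8% of cells. Ramp2 was seen in 93.3% and 93.1% of cells and Calcrl in 68.1% and 67.1%.

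The retained cells were then grouped into states, clusters found on log values centred per library and with the 7 members kept out of the clustering genes. States were named from markers where at least 3 of them were among the 10 leading genes: hypoxic-like (led by Vegfa, Bnip3 and Ero1l), 2 interferon-like states (one led by Cd74, Ubd and Cxcl9, the other by Rsad2 and Ifit3), S-phase-like (Hells, Mcm5), 2 mitotic-like states (led by Ccnb2 and by Hist1h1b) and venous-like (Ackr1, Selp and Sele). The other states go by their leading genes. Orders and ranges over states cover those with at least 50 cells of a library, unless a smaller state is named. Ramp3 and Ednrb were the leading genes of 1 state by fold over the other states, followed by Col13a1, Vegfc and Aqp1, although neither had been used to find it. Levels by state are descriptions, since the states were made from the same cells. Centring also changed which cells were grouped. The centred Cldn4 state held 200 control and 523 knockout cells, and the Sult1a1 state 61 and 315. Without centring, a cluster led by Cldn4 and F2rl1 held 8 control and 742 knockout cells, and one led by Sult1a1 held 20 and 323. Ratios within these states may thus compare unlike cells, and this was not tested.

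**Figure D2:**
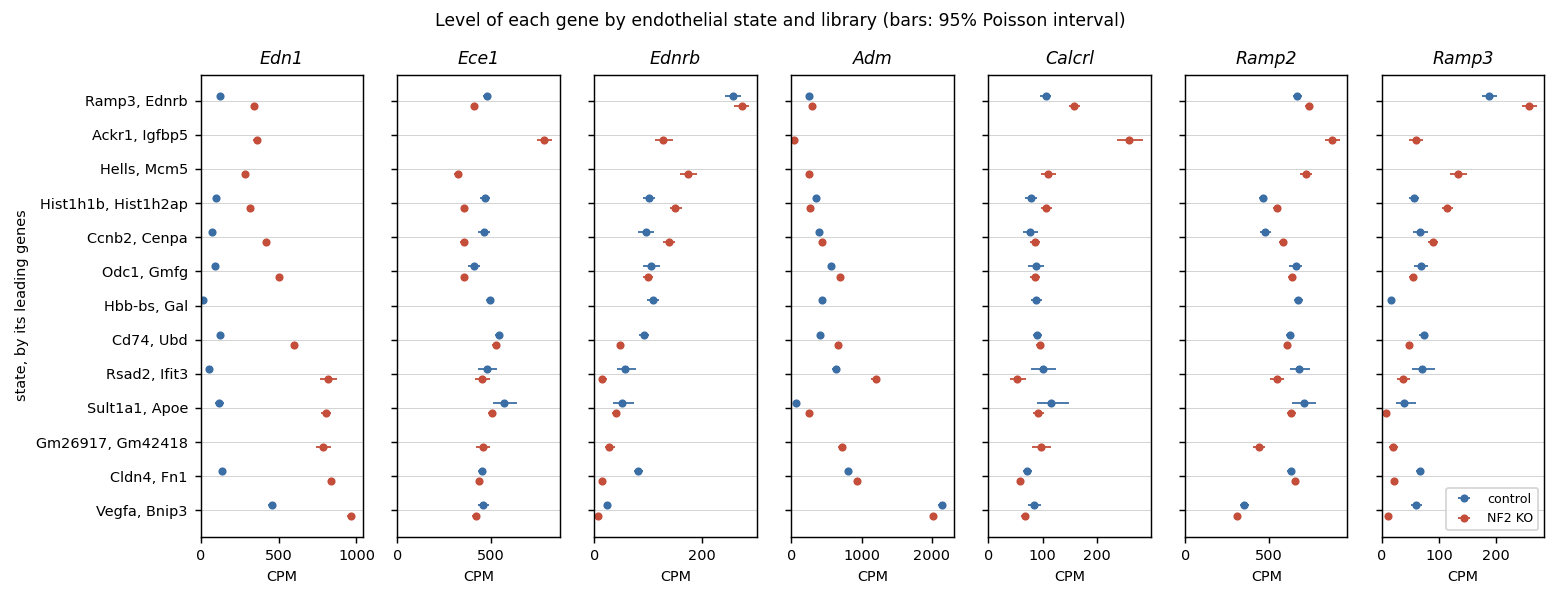
Level of each of the 7 genes in CPM in each state, for control and knockout cells, with 95% Poisson intervals; states with under 50 cells of a library are not drawn for it. Adm and Edn1 are highest in the Vegfa-led state, Ednrb and Ramp3 in the state they lead, and the Edn1 points of the knockout library lie above those of the control in every state drawn for both.

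Among states with at least 50 cells of a library, the 2 peptide genes had their highest level in the hypoxic-like state. Adm reached 2143 CPM in its control cells and 2013 CPM in its knockout cells, and 1 or more Adm UMI was found in 100% and 99.7% of them. This state held 8.28% of all control UMIs and 30.04% of the Adm UMIs, and 11.0% and 30.5% in the knockout library. The next levels were 809 CPM in the Cldn4 state of the control and 1201 CPM in the Rsad2 interferon-like state of the knockout library. Adm was lowest in the Sult1a1 state of the control, at 64.3 CPM (44.8 to 89.4), and in the venous-like state of the knockout library, at 42.3 CPM (33.3 to 52.9). It was at 36.8 CPM in the 37 venous-like control cells and at 29.0 CPM in a state led by Nts with 19 control cells, whose interval of 3.51 to 105 CPM spans the other low levels.

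Edn1 in the hypoxic-like state was at 457 CPM (430.2 to 485) in control cells and at 966 CPM (941 to 992) in knockout cells, above every other state with at least 50 cells of the same library. In the control the Cldn4, Ramp3 and Ednrb, Cd74 and Sult1a1 states followed at 140.4, 128, 124 and 118 CPM, with neighbouring intervals that overlapped. The lowest was the Hbb-bs state, at 12.9 CPM. In smaller control states, Edn1 was at 522 CPM (366 to 723) in the 19 cells of the Nts state. It was at 226 CPM (188 to 270) in the 37 venous-like control cells. In the knockout library the Cldn4 state (835 CPM), the Rsad2 interferon-like state (819 CPM) and the Sult1a1 state (803 CPM) followed with overlapping intervals. The S-phase-like state (288 CPM) and the Hist1h1b mitotic-like state (314 CPM) were lowest there.

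Among states with at least 50 cells of a library, Ednrb and Ramp3 were highest in the state they lead. Its other leading genes include Aqp1 and Cd300lg, from a list of 13 capillary markers, while Cd36 and Lpl of that list were among those of the Sult1a1 state. The list summed to 7159 CPM in the Ramp3 and Ednrb state. It was higher in the Sult1a1 (14924 CPM), Nts (13608 CPM) and venous-like (8509 CPM) states. In the Ramp3 and Ednrb state, Ednrb was at 258 CPM (243 to 274) in control cells and 275 CPM (261 to 288) in knockout cells. Ramp3 was at 189 CPM (176 to 202) and 259 CPM (246 to 272). This state held 14.8% of control UMIs but 32.6% of the Ednrb and 35.8% of the Ramp3 UMIs, and in the knockout library 10.9% of all UMIs but 33.9% and 39.5%. Against all other retained cells of both libraries Ednrb was 3.57-fold higher there and Ramp3 4.40-fold higher. Leading genes were picked by fold over the other states, so these values restate that choice. With a finer clustering (resolution 1.2 in place of 0.8) these values were 1.66 and 1.72, and in run 2 of the control alone that of Ramp3 was 2.77. Ednrb was lowest in the hypoxic-like state in both libraries, at 23.8 and 7.52 CPM. In the 37 venous-like control cells it was at 312 CPM (267 to 363), above the 258 CPM of the Ramp3 and Ednrb state but with overlapping intervals.

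Calcrl, Ramp2 and Ece1 had their highest pooled level in the venous-like state. Calcrl was at 260 CPM (237 to 285) in the 117 knockout cells of this state, against 158 CPM in the Ramp3 and Ednrb state and 53.1 to 110.5 CPM in the other knockout states with at least 50 cells. The 6 knockout cells of the Hbb-bs state had 157 CPM (94.8 to 246). Over both libraries Calcrl was 3.12-fold higher in the venous-like state than in the other retained cells. That value was 1.82 with a coarser clustering (resolution 0.4) and 7.78 in run 1 of the control alone. Among the 10 control states with at least 50 cells, Calcrl ranged only from 72.0 to 116 CPM, and each interval overlapped the next in the order. Ramp2 was lowest in the hypoxic-like state, at 353 CPM in control and 311 CPM in knockout cells, and at 440.7 CPM or more in every other state with at least 50 cells of a library. The 14 control cells of the Gm26917 state had 295 CPM of Ramp2 (205 to 410.3), an interval that includes the hypoxic-like levels. Ece1 was at 788 CPM in venous-like knockout cells and elsewhere lay between 409.5 and 575 CPM in control states with at least 50 cells and between 324 and 527 CPM in the other knockout states. In the venous-like state, macrophage or monocyte markers summed to 219 CPM in control and 402 CPM in knockout cells, against 47.1 and 68.1 CPM over all retained cells, and their part in these levels was not tested.

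Edn1 was higher in knockout cells in all 9 states that had at least 50 cells of each library. Among these 9, the ratio was smallest in the hypoxic-like state at 2.11 (1.98 to 2.26), followed by the Ramp3 and Ednrb state at 2.71 (2.46 to 2.98) and the Hist1h1b mitotic-like state at 3.15 (2.77 to 3.58). It was 4.84 in the Cd74 interferon-like, 5.48 in the Odc1, 5.65 in the Ccnb2 mitotic-like, 5.95 in the Cldn4 and 6.84 in the Sult1a1 state. The largest was 15.3 (11.2 to 21.6) in the Rsad2 interferon-like state, with 53 control cells at 53.4 CPM and 59 knockout cells at 819 CPM. Run 1 of the control was above run 2 in that state (76.1 and 24.4 CPM) and also in the Sult1a1 state (169 and 44.3 CPM), and without run 1 the ratios were 33.6 and 18.2. In the Hist1h1b state the control runs were at 37.0 and 154 CPM, and the ratio was 2.04 without run 1 and 8.49 without run 2. The venous-like state, with 37 control cells, was not among the 9. Its levels were 226 CPM in control and 361 CPM in knockout cells. Its runs overlapped, at 549 and 167 CPM in the control, against 214 and 414 CPM in the knockout library. Other small states had 53.3 and 288 CPM (S-phase-like), 101 and 787 CPM (Gm26917) and 12.9 and 381 CPM (Hbb-bs) in control and knockout cells.

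**Figure D3:**
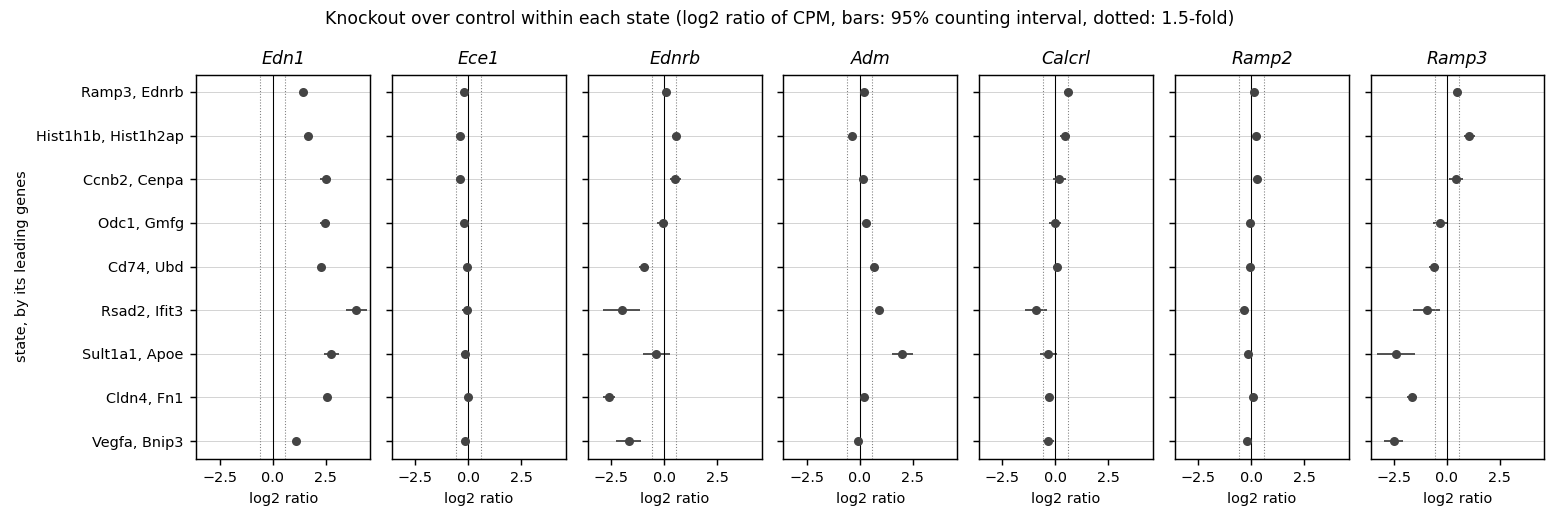
Ratio of CPM, knockout over control, of each gene within each of the 9 states with at least 50 cells of both libraries (log axis), with 95% exact conditional intervals and lines at a ratio of 1 and at the size rule. The Edn1 ratios run from 2.11 to 15.3, those of Ece1 and Ramp2 stay within the lines, and those of Ramp3 run from 0.178 to 2.06.

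The other 6 members gave 53 pairs of gene and state with a mean of at least 20 CPM. Of these pairs 4 were higher in knockout cells and 9 were lower. Over all genes tested, 3.98% of 51537 such pairs were higher and 7.33% lower. Pairs are not independent, since they share genes, cells and libraries.

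Ednrb in the Cldn4 state was at 111 and 54.3 CPM in the control runs, against 11.3 and 14.9 CPM in the knockout runs. Both knockout runs were below both control runs, and the pooled level was 6.07-fold lower in knockout cells (5.04 to 7.32). It was 1.94-fold lower (1.66 to 2.26) in the Cd74 interferon-like state and 3.92-fold lower (2.17 to 7.46) in the Rsad2 interferon-like state. Without run 1 of the control, the ratio in the Cldn4 state was 0.248, and those in the Cd74 and Rsad2 states, 0.713 and 0.436, no longer passed the rule. Without run 2 of the knockout library the Rsad2 ratio was 0.169. In the hypoxic-like state Ednrb had 23.8 CPM in control and 7.52 CPM in knockout cells, a mean too low for the rule. In the state it leads the ratio was 1.06 (0.985 to 1.15), and in the Ccnb2 and Hist1h1b mitotic-like states it was 1.45 (1.22 to 1.74) and 1.49 (1.299 to 1.71). Leaving out run 1 of the knockout library brought the latter pair to 1.51 and 1.54, past the rule, as did leaving out run 2 of the control for the Ccnb2 state (1.72) and run 1 of the control for the Hist1h1b state (1.59). The within-state ratios of Ednrb thus lay on both sides of 1, and a test of the difference between states was not possible with 1 library per group.

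Ramp3 also had within-state ratios on both sides of 1. It was 5.63-fold lower in knockout cells (4.15 to 7.71) in the hypoxic-like state, where the control runs had 56.7 and 63.0 CPM and the knockout runs 11.2 and 10.3 CPM. In the Cldn4 state it was 3.104-fold lower (2.63 to 3.67), with 47.3 and 84.7 CPM in the control runs, against 16.9 and 24.7 CPM in the knockout runs. In both states the runs of the libraries did not overlap. It was also lower in the Sult1a1 state (38.6 and 7.35 CPM) and the Cd74 and Rsad2 interferon-like states (1.52-fold and 1.93-fold). The Sult1a1 value rested on run 1 of the control: without it, Ramp3 had a ratio of 1.66 (0.273 to 68.1), and it was 0.117 without run 2 of the control. Without run 2 of the knockout library its mean was under 20 CPM, so the call was lost. The calls in the Cd74 and Rsad2 states were lost without run 2 of the control, with ratios of 0.705 and 0.810, and that in the Rsad2 state also without run 1 of the knockout library (0.642). Without run 2 of the knockout library the Rsad2 ratio was 0.309. In the Odc1 state the ratio of 0.789 became 0.481 without run 2 of the control, past the rule, and 1.43 without run 1. In the Hist1h1b mitotic-like state Ramp3 was 2.06-fold higher in knockout cells (1.72 to 2.47), with 49.8 and 61.0 CPM in the control runs, against 128 and 108 CPM in the knockout runs. In the state it leads the ratio was 1.37 (1.26 to 1.49), short of the rule, and in the Ccnb2 state 1.34, which was 1.60 and past the rule without run 1 of the knockout library.

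The Cldn4 state also differed between the libraries in its markers. The 16 endothelial markers summed to 10193 CPM in its control cells and 6865 CPM in its knockout cells, and the 7 epithelial or tumour markers, Cldn4 among them, summed to 12.6 and 85.7 CPM. In the hypoxic-like state these sums were 8941 and 5801 CPM for endothelial and 24.2 and 69.0 CPM for epithelial or tumour markers. Their part in the Edn1, Ednrb and Ramp3 ratios of these states was not tested.

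Adm was higher in knockout cells in 3 of the 9 states. In the Sult1a1 state it had 62.8 and 66.4 CPM in the control runs, against 289 and 248.5 CPM in the knockout runs, 4.002-fold higher (2.86 to 5.78) and with no overlap. In the Rsad2 interferon-like state the ratio was 1.88 (1.69 to 2.09), which was 1.26 without run 2 of the knockout library and then short of the rule. In the Cd74 interferon-like state it was 1.60 (1.51 to 1.69). In the hypoxic-like state, where Adm was highest, the ratio was 0.939 (0.909 to 0.971). In the Hist1h1b state the ratio of 0.769 passed the rule as lower without run 1 of the control (0.637) or of the knockout library (0.628). Calcrl was lower in 1 of 9 states, 1.89-fold (1.32 to 2.71) in the Rsad2 interferon-like state, and its ratio in the Ramp3 and Ednrb state was 1.49 (1.33 to 1.67), which passed the rule without run 1 of the control (1.62) or of the knockout library (1.51). Ece1 passed the rule in none of the 9 states, with ratios between 0.757 and 0.973, and neither did Ramp2, with ratios between 0.802 and 1.23, although Ramp2 was lower in the Rsad2 state without run 1 of the control (0.649).

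Pairs of members were compared across the states of each library. In the 12 knockout states with at least 50 cells, Pearson's r of log2(CPM + 10) was −0.95 between Edn1 and Ednrb and −0.89 between Edn1 and Ramp3. In the 10 control states these were −0.42 and 0.49. Ednrb and Ramp3 had r = 0.87 in the knockout and 0.42 in the control states, and Adm and Calcrl had r = −0.89 and −0.60. For Calcrl and its accessory genes, r with Ramp2 was 0.59 in the knockout and 0.52 in the control states, and with Ramp3 0.49 and 0.11. In the Hbb-bs state of the control, Ednrb was second in the order of the 10 states (108 CPM) and Ramp3 last (16.3 CPM). Edn1 was last there too (12.9 CPM). This state had 6 knockout cells and is not among the 12 knockout states. The control r of 0.49 between Edn1 and Ramp3 includes it, and r without it was not computed. States of 1 library share its cells' preparation and sum to 1 total, and the 2 libraries do not hold the same states, so these values are descriptions only.

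**Figure D4:**
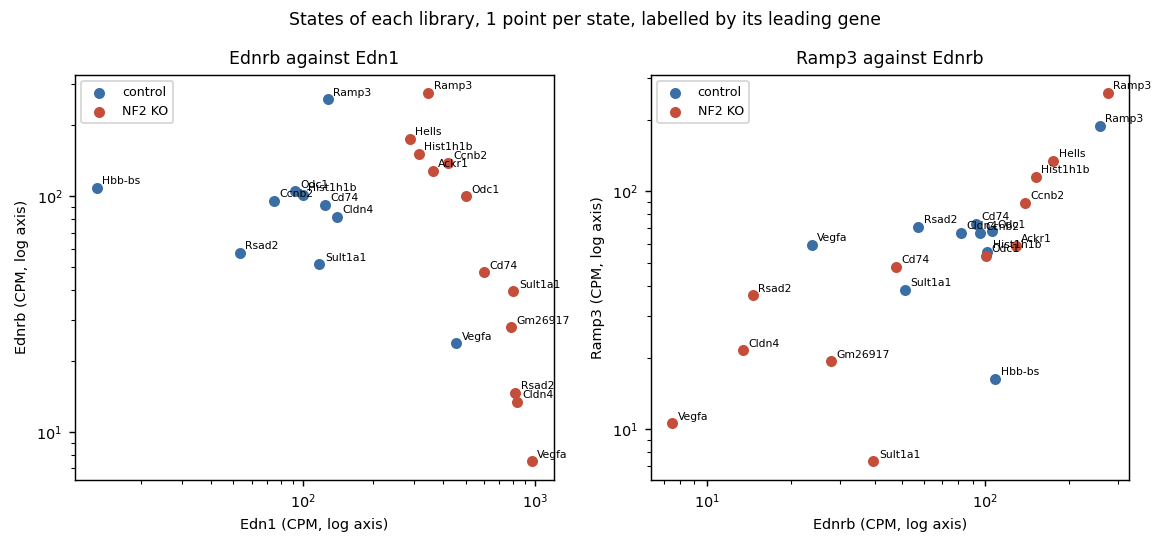
Levels of pairs of members in CPM across states (log axes), each point 1 state of 1 library with at least 50 cells. The r values were computed on log2(CPM + 10). In the 12 knockout states Ednrb goes down as Edn1 goes up (r = −0.95), while the 10 control states show no such close relation (r = −0.42).

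Pairings were also counted in single cells thinned to 2000 UMIs. Of knockout cells with an Edn1 UMI, 7.26% (6.00 to 8.69) also had an Ednrb UMI, against 19.0% (16.8 to 21.2) of those without. In the control these shares were 13.6% (9.43 to 18.7) and 19.9% (17.6 to 22.3), whose intervals overlap. Ednrb was found in 32.5% of control cells with a Ramp3 UMI and 17.0% of those without, and in 35.0% and 10.4% of knockout cells. An Edn1 UMI was more frequent in cells with an Adm UMI than in those without, at 21.2% against 13.2% in the control and 65.4% against 43.0% in the knockout library. For Calcrl and Ramp2 the shares had overlapping intervals: Ramp2 was seen in 66.7% of control cells with and 67.5% of those without a Calcrl UMI, and in 64.0% and 62.2% of knockout cells. Ramp3 was seen in 12.6% (9.72 to 15.9) of knockout cells with and 7.96% (6.89 to 9.15) of those without a Calcrl UMI, and in 14.7% (10.3 to 19.98) and 11.2% (9.46 to 13.2) of control cells, where the intervals overlap. In knockout cells with an Adm UMI, Calcrl (14.5% against 20.1%) and Ramp3 (6.15% against 11.5%) were less frequent than in those without, and in the control both pairs of intervals overlapped. Cells of 1 library are not replicates, and these intervals cover counting error only.

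Over the 22 state levels of both libraries pooled, the genes with the pattern most like a member's were ranked by the same r among 5837 genes with a mean of at least 20 CPM. For Edn1 they were Thbs1 (r = 0.95), Crim1 (0.94), Cyr61 (0.91) and Filip1l (0.90), whose own ratios of the libraries were 2.78, 1.74, 1.87 and 2.06. For Adm they were Pdgfb (0.94), Angpt2 (0.93), Esm1 (0.93) and Eif2b2 (0.92). For Ednrb they were Rtl8a (0.89), Nrarp (0.89), Pde4d (0.88) and P3h2 (0.87), and for Ramp3 Eml1 (0.86), Ptpn18 (0.83), Tnfaip2 (0.82) and Pdia3 (0.79). Calcrl was most like Tspan12 (0.86), Lepr (0.84), Slco2a1 (0.84) and Nr2f2 (0.83), and Ramp2 most like Npdc1 (0.91), Fis1 (0.90), Atox1 (0.90) and 1110008P14Rik (0.90). Ece1 was most like Egr1 (0.84), Psap (0.83), Tmem159 (0.81) and Jun (0.80). No member was allowed in these ranks. Levels were not centred per library here, so a difference between the libraries also enters r. The same r within 1 library is not given for these genes.

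Other genes of the endothelin system were few in these cells. Of 7 listed genes 4 were in the tables and 1 passed 20 CPM: Furin, which encodes the protease that trims the endothelin precursor. Furin had 68.1 and 60.5 CPM in the control runs, against 38.1 and 41.0 CPM in the knockout runs, and was 1.60-fold lower (1.51 to 1.71) in the knockout library. Ednra, the receptor gene of smooth muscle, had 6 control and 3 knockout UMIs, Ece2, another converting enzyme gene, had 2 and 4, and Mme, the gene of the peptide-degrading enzyme neprilysin, had 0 and 1. These are at or near the limit of 3 UMIs that a count of 0 allows, 0.104 CPM in the control, against 0.0563 CPM in the knockout library.

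Of 9 other genes of the adrenomedullin and calcitonin family 8 were in the tables, 7 had a UMI (Calca had none) and 3 passed 20 CPM. Ackr3, an atypical receptor that takes up adrenomedullin and the chemokine CXCL12, was the single gene past the rule. It had 169 and 174 CPM in the control runs, against 110 and 85.5 CPM in the knockout runs, 1.82-fold lower (1.75 to 1.89) in the knockout library. Without the 3 clusters led in part by markers of other cell types its ratio was 0.674 (0.632 to 0.718) and did not pass. Pam, whose enzyme adds the amide that adrenomedullin needs, had 38.2 and 45.2 CPM, a ratio of 1.18 (1.10 to 1.27). Crcp, which encodes a receptor component protein, had a ratio of 1.12 (1.03 to 1.22). Gpr182, a receptor gene related to Ackr3, had 4.11 and 12.1 CPM, a ratio of 2.95 (2.42 to 3.62), and Adm2, the gene of a related peptide, 1.48 and 2.67 CPM. Both were under the minimum of 20 CPM.

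None of the signalling genes further downstream passed the rule. Of 24 genes of G proteins and second messengers 15 passed 20 CPM, with a median log2 ratio of −0.16. Gnai2 (1633 and 1276 CPM, ratio 0.781), Gnas (1204 and 1105 CPM, ratio 0.918), Gna11 (ratio 0.892) and Gna13 (ratio 0.774), which encode G protein alpha subunits, were the most abundant of them. Of 14 listed symbols of nitric oxide and cyclic GMP genes 12 were in the tables and 3 passed 20 CPM, with a median of −0.34. The symbols not found, Gucy1a3 and Gucy1b3, are older names of Gucy1a1 and Gucy1b1, which were found. Cav1, the caveolin gene, had 1268 and 1637 CPM (ratio 1.29), Nos3, the endothelial nitric oxide synthase gene, 106 and 80.9 CPM (0.766), and Nos2 55.4 and 43.9 CPM (0.793). Ptgs1, a prostaglandin synthase gene, was at 4.73 and 10.3 CPM, below the minimum.

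Among 19 transcription factor genes known to act on Edn1 or Adm 17 passed 20 CPM, none passed the rule, and the median log2 ratio was −0.14. Klf4, a flow-responsive factor gene, had 72.8 and 107.5 CPM, a ratio of 1.48 that was 1.75 and past the rule without run 1 of the control. Wwtr1, which encodes TAZ, had 303 and 215 CPM, a ratio of 0.7096 that was 0.662 and past the rule without run 2 of the knockout library. These 2 were named for that reason, after their values were seen. Jun had 1157 and 853 CPM (ratio 0.738), Junb 923 and 797 CPM (0.864), Fos 598 and 663 CPM (1.11), and Hif1a, the hypoxia-inducible factor gene, 346 and 357 CPM (1.03). The medians of these lists stand beside −0.03 for all genes tested, and no list was tested as a set.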

How the data were processed

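The authors deposited 1 table of natural log values per library, and Cell Ranger 3.0.0, Seurat 3.1.1 and mm10 are named in the submitters' processing notes. Tested on the values, a cell's UMIs had been scaled to 10000 and 1 added before the logarithm, so whole UMI counts were recovered (100% whole within 0.01 UMI) in place of the counts the design had assumed. Cells needed 500 genes, 1000 UMIs and no more than 10% mitochondrial UMIs. An automatic doublet threshold failed (0.0778% and 0% of cells marked), and the top 5% of doublet scores (129 and 166 cells) were taken out. Clusters and states came from scanpy 1.11.5 (2000 variable genes, 30 components, 15 neighbours, Leiden resolution 0.8). Of 14 clusters 3 were left out for at least 2 more leading markers of neutrophils than of endothelium, 2 of which also had a relative depth under 0.333, and then 1 shallow state led by S100a9. Summed UMIs were given as CPM with exact Poisson, conditional and Clopper-Pearson intervals (scipy 1.17.1). The size rule was tested on simulated data. Members, lists and rules were chosen with earlier results of these data known. Named genes are the members, the 4 genes most like each, list genes past the rule and up to 4 others of the highest mean CPM per list. Other scalings, filters, resolutions and left-out runs were tried.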

Additional observations from a re-analysis of the deposited data

Results flagged for a closer look

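Ramp3 had opposite differences in 2 states. Knockout over control, its ratio was 0.178 in the hypoxic-like state led by Vegfa and Bnip3 and 2.06 in the mitotic-like state led by Hist1h1b, and in each state both knockout runs lay on the same side of both control runs. The difference between the states was not tested, since there was 1 library per group.

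The cells left out of the comparison, 999 of the control (median 1859 UMIs per cell) and 349 of the knockout library (median 2514 UMIs), held 176 and 401 Edn1 UMIs. Their levels of 62.8 and 296 CPM gave an Edn1 ratio of 4.72 (3.94 to 5.67). Ramp3 had 187 and 158 UMIs in these cells, with levels of 66.7 and 117 CPM and a ratio of 1.75 (1.41 to 2.17), whereas in the retained cells it was 0.919.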

How the results depend on the processing

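Each member's ratio of the libraries was recomputed under 17 alternatives. The ratio of Edn1 ranged from 2.93 to 5.04 and passed the size rule in each, and those of Ece1 (0.846 to 0.964), Adm (1.14 to 1.29), Calcrl (0.957 to 1.10), Ramp2 (0.930 to 1.12) and Ramp3 (0.773 to 1.003) passed it in none. Ednrb ranged from 0.661 to 0.927 and passed it only without run 2 of the control (0.661). Of those short of the rule, Calcrl crossed 1 in 2 alternatives, Ramp2 in 4 and Ramp3 in 1. Leaving out the state led by Gm26917 and Gm42418 or that led by Hbb-bs, both chosen after seeing the data, gave Edn1 ratios of 4.61 and 4.12.

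Over all genes, 163 were higher and 317 lower. These counts were 358 and 517 with a minimum of 5 CPM, 1290 and 1004 with no minimum, and 63 and 94 with a fold of 2. Among the pathway lists, with 0 higher and 2 lower, 1 was higher with median scaling, without run 1 of either library, with shallow clusters kept or with the highest doublet scores kept, 2 with a minimum of 5 CPM and 4 with none. The count of lower list genes was 0 with a fold of 2, 4 without run 2 of the knockout library and 1 without clusters with leading markers of other cell types, where Ackr3 (0.674) no longer passed. Without run 2 of the knockout library Plcb4 (0.6295) and Wwtr1 (0.662) joined Furin and Ackr3, and the 1 higher gene was Klf4 in each case, with ratios of 1.503 to 1.75. The level of Ece1 in its top state over the other retained cells, 1.68, was 1.35 at resolution 0.4, 1.23 in run 2 of the control alone and 1.26 in control cells alone, and that of Ramp2, 1.44, was 1.60 in run 1 of the knockout library alone. Of 252 within-state alternatives, 233 stayed on their side of the rule, of which 212 also kept their direction and 21 crossed a ratio of 1 without passing the rule before or after (0.967 to 1.43 then), 11 newly passed it, 7 lost it, and 1 that passed reversed, the Ramp3 ratio in the Sult1a1 state without run 1 of the control (1.66). The cause of these changes was not tested, except that other minimums and folds change which genes can pass. No paired analysis was possible because each group had 1 library.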

Other observations

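Some states held too few cells of 1 library to compare. The Hbb-bs state held 173 control and 6 knockout cells, and in its control cells Ednrb was at 108.5 CPM, Adm at 438 CPM and Ramp3 at 16.3 CPM. The Gm26917 state held 14 control and 172 knockout cells with a median of 6089 UMIs, and Edn1 was at 787 CPM and Ramp2 at 440.7 CPM in its knockout cells. The venous-like state held 37 control cells, in which Ednrb was at 312 CPM (267 to 363) against 129 CPM (113 to 146) in 117 knockout cells, and Calcrl at 338 CPM (291 to 391). The control cells of this state differed between runs, with Calcrl at 716 CPM in run 1 and 269 CPM in run 2. Ednrb was there at 477 and 282 CPM in runs 1 and 2 of the control and at 268 and 77.5 CPM in those of the knockout library.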
